A study of Danio rerio with 2 samples.

Results

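The cathepsins and the subunits of the vacuolar proton pump were followed in zebrafish kidney marrow, the haematopoietic organ of adult fish. All gene symbols of the deposited feature table that start with cts (cathepsins) or atp6v (pump subunits) were taken when they had at least 20 UMI counts over both libraries. This gave 33 of 40 symbols, 15 cathepsins and 18 pump subunits, out of 12868 symbols of the whole table with as many counts. The members just inside the limit were atp6v0cb with 30 counts and ctsbb with 40 counts. Outside it fell atp6v1b2 with 10 counts, cts12 with 3, ctsll with 2, atp6v0a2a and atp6v1c2 with 1 each, and ctslb (4 features) and atp6v0a1b with 0.

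Droplet-based scRNA-seq had been done on 2 libraries from 2 male fish aged 6 months that carried Tg(lysC:CFPNTR) and Tg(BACmmp9:Citrine-CAAX). In these fish the lysC promoter drives a cyan protein in neutrophils and the regulatory elements of mmp9 drive a membrane Citrine. Before the sort, portions of each marrow had been labelled on ice with lipid-anchored sample barcodes (2 µM, 5 min). One library held LysC+ neutrophils sorted as Mmp9 NO, INT and HI and pooled in 1 well, the other held whole kidney marrow (WKM), sorted only for live cells without debris. Both fish were pooled in each library and cells were not assigned to a fish here, so every condition was 1 library, no difference had a replicate check, and all intervals below are 95% intervals of counting error only.

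The sorted library held 58772890 UMIs in 17846 barcodes and the WKM library 45939863 UMIs in 10688 barcodes. After filters and removal of doublets, 15102 sorted cells (median 2236 UMIs) and 8191 WKM cells (median 3357 UMIs) were kept. Of the kept barcodes 41 occurred in both libraries, 0.501% of those of WKM. All 5 neutrophil markers present in the table (lyz, npsn, lect2l, mpx and mmp9) were detected in every lyz band of the sorted library. Markers of monocytes and macrophages summed to between 6.25 and 26.9 CPM (counts per 1000000 UMIs) there. In its lowest lyz band 3 of these 9 markers had at least 3 counts. The other 6 (mpeg1.2, marco, csf1ra, c1qa, c1qc and mfap4) were at 0. B cell markers summed to 110 CPM in its lowest lyz band and 26.0 CPM in its highest. Markers of blood stem and progenitor cells went the other way, with 83.9 and 199.5 CPM. Heat-shock (hsp70 family) transcripts were far higher in the sorted library, at 299 to 1034.5 CPM across its lyz bands against 6.30 to 17.1 CPM in WKM.

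Cathepsins are proteases of lysosomes and of the granules of white blood cells. Most are cysteine proteases, cathepsin D is an aspartic protease, and cathepsin A a serine carboxypeptidase. Most of them work at acidic pH, which the vacuolar proton pump (V-ATPase) maintains. Its cytosolic V1 sector hydrolyses ATP (subunits A to H) and turns a rotor, and its membrane V0 sector (subunits a, b, c, d and e) carries the protons. In mammalian neutrophils cathepsin C activates the serine proteases of the azurophil granules, and in macrophages the same pump acidifies the phagosome.

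Cells were first ordered by the share of their UMIs that came from lyz, the granule enzyme lysozyme. In the sorted library 6578 cells lay under 2%, 3045 at 2 to 5%, 3714 at 5 to 10% and 1765 over 10%. The bands are ranges and not cell types: 1329 sorted cells lay between 1.5 and 2.5% and 815 between 9 and 11%. Level of mmp9 went the other way, from 1622 CPM under 2% lyz to 38.5 CPM over 10%. Depth also went with the bands, with a median of 1667 UMIs per cell under 2% and 7072 over 10%, and hsp70 transcripts went from 1034.5 to 299 CPM. With only cells of at least 800 features the cathepsin median given below was 0.41 beside 0.35 for all genes, so that it lay close to the typical gene. Without the cells that had 3 or more hsp70 UMIs, a comparison added with the first results in view, the cathepsin median was 0.68, the pump median 0.12 and that of all genes 0.49.

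In the sorted library cathepsin transcripts together made up 2597 CPM under 2% lyz, 2210 at 2 to 5%, 1791 at 5 to 10% and 1226 over 10%. Pump transcripts together had 1769, 1623, 1507 and 1273 CPM in the same bands. Both sums were thus higher at each step to less lyz, the cathepsins more steeply than the pump. The cathepsin rise was largely that of 1 gene, ctss2.1, with 1647 CPM under 2% lyz and 565.5 CPM over 10%. The next most abundant cathepsin, ctss1, was not higher at the last step (524 CPM at 2 to 5%, 425 CPM under 2%). The steeper sum is thus not read as a trait of the family. Of the genes one by one, 8 cathepsins and 4 pump subunits were higher at every step to less lyz, and ctsh and atp6v1c1b were lower at every step. These 12 higher members were 36.4% of the 33, where 33.5% of all 12868 genes were higher at every step, and the 2 lower ones 6.06% against 12.9%. Steps with counting intervals apart throughout were found for 3 of them, ctss2.1, atp6v0ca and atp6v0e1 (9.09% against 7.9% of all genes).

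The cathepsin sum was mostly ctss2.1, a zebrafish cathepsin S, the enzyme that trims the invariant chain of MHC class II in mammals. Its level was 1647 CPM under 2% lyz, 1248 at 2 to 5%, 952 at 5 to 10% and 565.5 over 10%, a log2 ratio of the outer bands of 1.54 (interval 1.504 to 1.581). The 4 bands did not overlap in their counting intervals. Its relative ctss1 peaked in the middle, at 425, 524, 441 and 298 CPM from the lowest to the highest lyz band, with a log2 ratio of 0.51. The third gene of the set, ctss2.2, had 39.5 CPM under 2% and 20.6 CPM over 10% (0.94). As a result ctss1 made up 20.1% of cathepsin S UMIs under 2% lyz and 33.7% over 10%, and ctss2.1 78.0% and 64.0%.

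**Figure D1:**
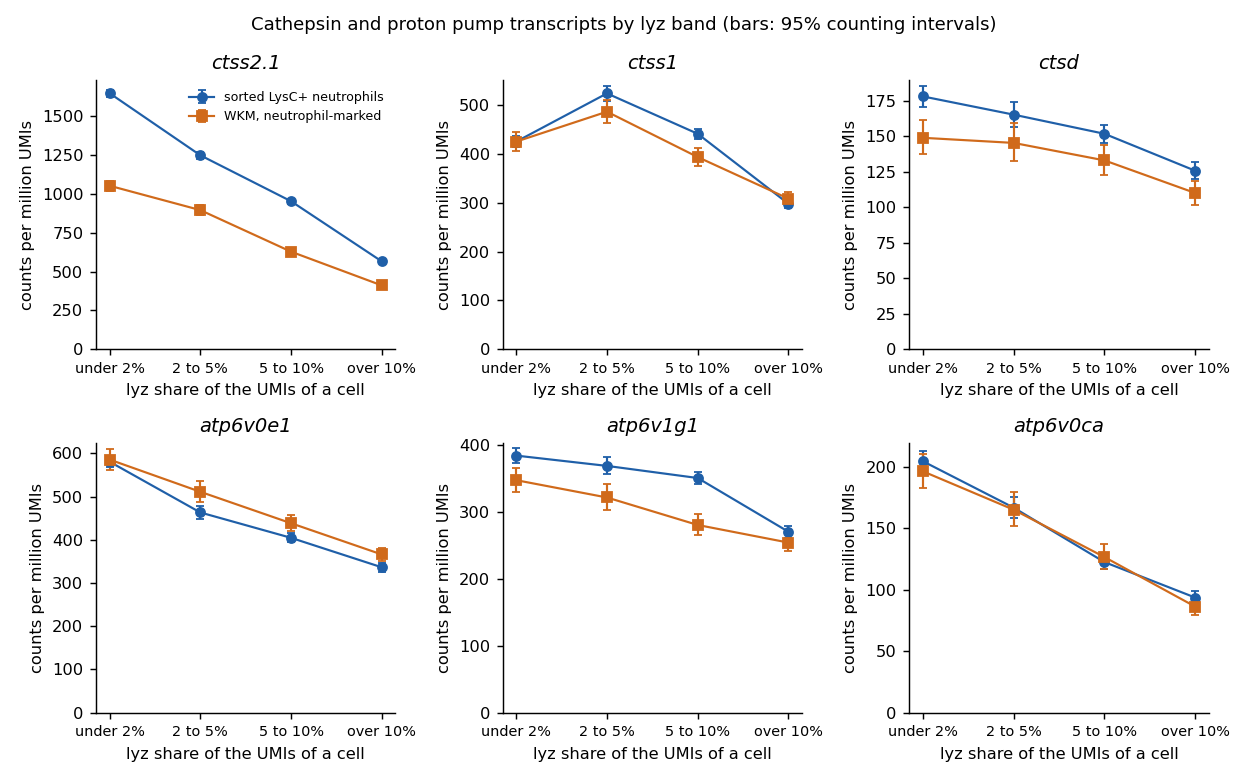
Levels of 3 cathepsins (top) and 3 pump subunits (bottom) in CPM (vertical axes) by lyz band (horizontal axes), in sorted LysC+ neutrophils (circles) and in WKM cells with neutrophil markers and no other gate (squares). Bars are 95% counting intervals. ctss2.1 and atp6v0ca fall from the lowest to the highest lyz band in both libraries (1647 to 565.5 and 204 to 93.6 CPM in the sorted one), whereas ctss1 peaks at 2 to 5%.

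Of the 29 members with at least 50 counts over the outer bands, 4 were at least 2-fold higher under 2% than over 10% lyz, while 27.4% of all 9102 genes tested were. Another 2 were at least 2-fold lower, against 11.1% of all genes. The members were thus not called more often than genes at large. The median log2 ratio of the 12 tested cathepsins was 0.66 and that of the 17 tested pump subunits 0.10, beside 0.44 for all genes, so that relative to the typical gene the pump was 0.35 lower and the cathepsins 0.21 higher. Among all called genes 71.2% were higher under 2% lyz, and 45.8% when libraries were scaled by the median of ratios.

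Beside ctss2.1, the cathepsins called higher under 2% lyz were ctsf and ctsl.1. The cysteine protease ctsf had 12.4 CPM under 2% lyz and 2.18 CPM over 10% (log2 ratio 2.51, interval 1.93 to 3.14). The cathepsin L gene ctsl.1 had 18.8 and 6.91 CPM (1.45, interval 1.09 to 1.81). Its paralog ctsla went the other way and was called lower, with 4.81 CPM under 2% and 11.2 CPM over 10% (-1.22, interval -1.68 to -0.78). Without the hsp70-rich cells ctsla had -0.62 and was no longer called, while ctsba (1.42) and ctss2.2 (1.08) were then called higher and ctsh (-1.44) lower. In all sorted cells ctsl.1 held 79.7% of cathepsin L UMIs in the lowest lyz band and 38.2% in the highest.

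The other abundant cathepsins did not pass the 2-fold limit in the sorted library. The dipeptidyl peptidase ctsc (0.80) and the cathepsin B gene ctsba (0.98) lay above the median of all genes. The aspartic protease ctsd, with 178 CPM under 2% and 126 CPM over 10% (0.50), lay close to it. Log2 ratios of the carboxypeptidases ctsa and ctsz were 0.30 and -0.05, and the aminopeptidase ctsh had -0.88 (4.25 and 7.81 CPM).

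Within the pump, V0 subunits summed to 969, 809, 694 and 583 CPM from the lowest to the highest lyz band, and V1 subunits to 800, 814, 813 and 690 CPM. The V0 sum was higher at every step to less lyz, and the V1 sum was level over the 3 lower bands. The proteolipid gene atp6v0ca, which encodes the subunit c of the rotating proton-carrying ring, was the 1 pump gene called higher, with 204, 167, 122 and 93.6 CPM (1.13, interval 1.03 to 1.23). With scaling by the median of ratios it had 0.68 and was not called. The small V0 subunit atp6v0e1 had 581, 463.5, 405 and 336.5 CPM (0.79). Of the other V0 genes, atp6v0d1, which couples rotor and ring, and atp6v0b, a further ring protein, had 0.32 and 0.34. The a subunit genes atp6v0a1a and atp6v0a2b both had -0.11, with intervals that included 0. Most of the V0 sum and of its rise thus came from atp6v0e1 and atp6v0ca.

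Of the V1 genes, the peripheral stalk subunits atp6v1g1 and atp6v1e1b had log2 ratios of 0.51 and 0.44, and the second E gene, atp6v1e1a, 0.10. The ATP-binding subunit B gene atp6v1ba (-0.25), the stator subunit C gene atp6v1c1a (-0.20) and the regulatory subunit H gene atp6v1h (-0.14) had intervals below 0. The second C gene, atp6v1c1b, was called lower, with 5.05 CPM under 2% and 12.6 CPM over 10% (-1.32, interval -1.76 to -0.90). The remaining tested pump genes lay between -0.47 and 0.19. Too few counts for a call were found for ctsk (7 and 3 counts in the outer bands) and ctso (27 and 7), and ctsbb and atp6v0cb had 0 counts in these cells.

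The same bands held 5020, 1213, 1041 and 917 cells in WKM. Its lowest band was a mixture: hemoglobin took up 18.2% of its UMIs and macrophage markers summed to 618 CPM, against 31.5 CPM over 10% lyz. Over all WKM barcodes, 8 of 30 tested members were at least 2-fold higher under 2% lyz (17.6% of all genes) and 3 were lower (5.23%). The median log2 ratio was 0.47 for cathepsins and 0.07 for pump subunits, beside 0.18 for all genes. The largest were those of ctsk (8.69 and 0.323 CPM, 4.75), ctsla (65.8 and 3.88 CPM, 4.08) and ctsh (42.3 and 5.17 CPM, 3.03), and the lowest those of ctss1 (80.1 and 306.5 CPM, -1.94), atp6v1e1a (-1.20) and atp6v1f (-1.20).

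Other abundant members of all WKM barcodes followed in between. The called ones were ctss2.2 (2.95), atp6v1ab (2.12), ctsf (1.96), atp6v0ca (1.30) and ctsz (1.14). Not called were atp6v1e1b (0.91), ctsc (0.47), atp6v0b (0.36), ctsba (0.28), atp6v1ba (0.13), atp6v1g1 (0.11), atp6v0e1 (0.07), ctsa (-0.06), ctsd (-0.13), atp6v1c1a (-0.39), atp6v1h (-0.39), atp6v0d1 (-0.48) and ctss2.1 (-0.68). Of the 8 called higher, 7 (all but ctsf) were also at least 2-fold higher in macrophages than in neutrophils. The matching share of all genes called higher was not determined, so this count is not read as a result about the members. Of the 7, ctsla was higher still in erythroid cells, at 155 CPM against 31.2 CPM in macrophages.

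Since the lowest band of WKM was a mixture, the bands were also compared in a narrower set of its cells. The set took cells with at least 1% of their UMIs from neutrophil markers and no other gate. It was decided on with the values of all barcodes in view. These were 2138, 1159, 999 and 907 cells from the lowest to the highest lyz band. Macrophage markers summed to 64.1 CPM in the lowest of them and to 25.2 CPM in the highest. In the lowest, 6 of the 9 markers had at least 3 counts, and marco and csf1ra had 0. Of 26 tested members 6 were at least 2-fold higher under 2% lyz, near the 24.7% of all genes, and 0 lower, against 7.2% of all genes. The medians were 0.82 for cathepsins, 0.18 for pump subunits and 0.48 for all genes. Between all barcodes and these cells 10 members changed sign, among them ctss2.1 (-0.68 and 1.36), ctsl.1 (-0.85 and 1.54), ctss1 (-1.94 and 0.46), ctsd (-0.13 and 0.44), ctsa (-0.06 and 0.40) and atp6v0d1 (-0.48 and 0.36). The median of all genes also differed between the 2 sets, at 0.18 and 0.48. How many of all genes changed sign was not determined.

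In these cells ctss2.1 had 1052, 895, 628 and 411 CPM from the lowest to the highest lyz band (1.36, interval 1.28 to 1.43) and atp6v0ca 196, 165, 127 and 86.3 CPM (1.19, interval 1.03 to 1.35). The ctsl.1 gene had 22.0 and 7.57 CPM in the outer bands (1.54) and ctss2.2 24.7 and 10.5 CPM (1.23). The V0 sum was 932, 833, 700 and 572 CPM and the V1 sum 744, 732, 682 and 642 CPM. Both sums were higher at every step to less lyz, the V0 sum over a wider range than the V1 sum.

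Of the 26 members tested in both libraries, 20 had the same sign (76.9%, and 88.7% of the 7011 genes tested in both), and 13 had an interval above 0 in both (50%, and 48.5% of all genes). These 13 were ctss2.1, ctss1, ctsd, ctsc, ctsa, ctss2.2, ctsl.1, atp6v0e1, atp6v1g1, atp6v0ca, atp6v0d1, atp6v1e1b and atp6v0b, and 3 of them (ctss2.1, ctsl.1 and atp6v0ca) were at least 2-fold higher in both (11.5%, and 19.5% of all genes). With scaling by the median of ratios ctsl.1 alone remained of these 3 (1.001 and 1.06), since atp6v0ca had 0.68 and 0.70 and ctss2.1 0.87 in WKM. It was 3.85% of the 26 members, where 8.67% of all 7011 genes were still at least 2-fold higher in both. The members were thus not alike in the libraries more often than genes at large. An interval below 0 in both was found for 2 (7.69%, and 14.3% of all genes), atp6v1c1b (6.61 and 12.7 CPM in WKM, -0.94) and atp6v1ba (34.7 and 46.4 CPM, -0.42). Opposite signs with both intervals off 0 were found for 2 more, ctsla and ctsh. These were 7.69% of the 26 members, a higher share than the 0.613% of all genes (43).

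**Figure D2:**
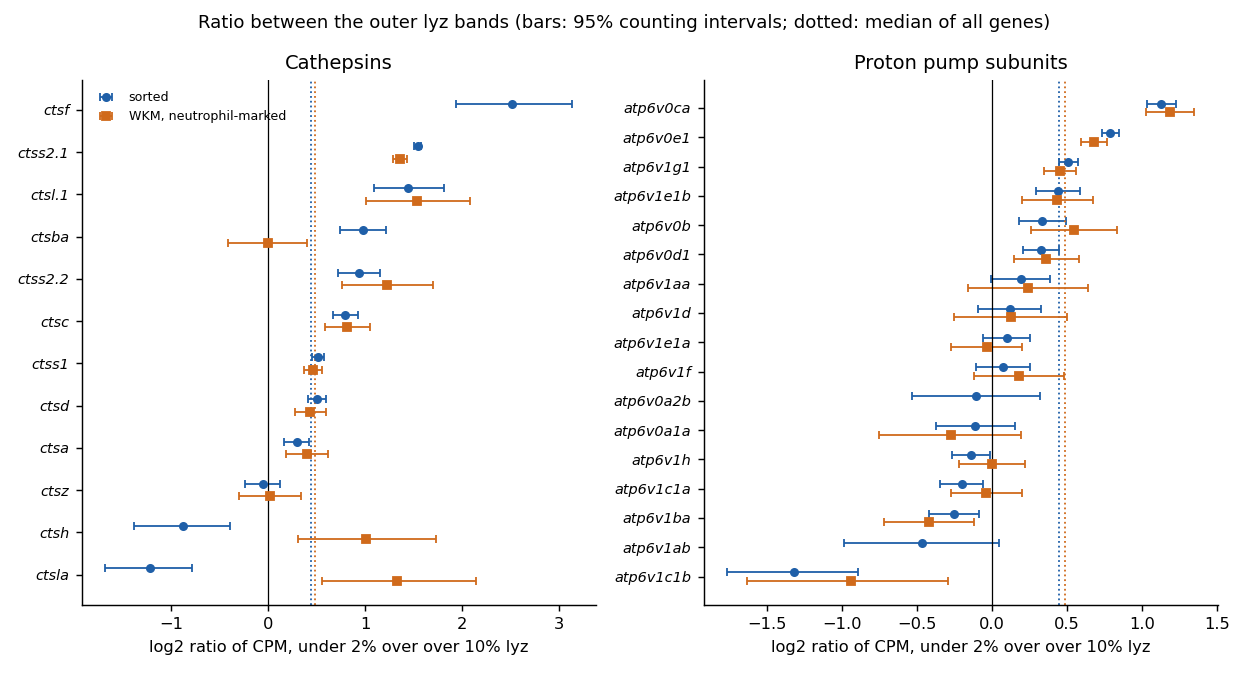
Log2 ratio of CPM between cells under 2% and over 10% lyz (horizontal axes) for each tested cathepsin (left) and pump subunit (right), in the sorted library (circles) and in WKM cells with neutrophil markers (squares). Bars are 95% counting intervals and dotted lines the median of all genes (0.44 and 0.48). ctss2.1, ctsl.1 and atp6v0ca lie above 1 in both libraries, and ctsla and ctsh lie on opposite sides of 0.

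The sorted cells were next grouped by mmp9, the matrix metalloprotease of late granules whose reporter had been used in the sort, after thinning each cell to 1000 UMIs. There were 9636 cells with 0 mmp9 UMIs, 3634 with 1 to 2 and 1711 with 3 or more. Cathepsins summed to 1725, 2395 and 2577 CPM and pump subunits to 1453, 1710 and 1841 CPM in these groups. Median lyz share fell over them from 4.42 to 1.88 and 0.648%, and hsp70 transcripts went from 385 to 945 and 2041 CPM, so that mmp9, lyz and hsp70 moved together.

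Between 3 or more and 0 mmp9 UMIs, 0 of 29 tested members were at least 2-fold higher (8.12% of all 9655 genes) and 2 were lower (12.4%). The medians were 0.08 for cathepsins, 0.07 for pump subunits and 0.06 for all genes. The highest ratios were those of ctsf (9.96 and 5.06 CPM, 0.98), ctss2.1 (1726 and 919 CPM, 0.91) and the catalytic A subunit gene atp6v1aa (56.4 and 30.5 CPM, 0.89). The lowest were those of ctsla (2.81 and 7.31 CPM, -1.38, from 11 counts), atp6v1c1b (4.08 and 10.4 CPM, -1.35, from 16 counts) and ctsba (15.3 and 21.9 CPM, -0.52). Both called genes were also lower under 2% lyz in the sorted library.

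Log2 ratios of the other abundant cathepsins by mmp9 were 0.66 for ctsc, 0.59 for ctss2.2, 0.18 for ctsh, 0.11 for ctsz, 0.01 for ctsa and -0.08 for ctsd. That of ctss1 was 0.00, with 394.4 and 394.1 CPM. Among pump genes they were 0.57 for atp6v0ca, 0.50 for atp6v0d1, 0.47 for atp6v1g1, 0.44 for atp6v0e1, 0.25 for atp6v1e1b, 0.13 for atp6v0b, 0.02 for atp6v1c1a, -0.07 for both atp6v1h and atp6v1ba, and -0.46 for atp6v1e1a.

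A narrower comparison, added with the first results in view, reduced the range of lyz by using only the sorted cells under 2% lyz. It held 3235 cells with 0 mmp9 UMIs, 1849 with 1 to 2 and 1428 with 3 or more. Median lyz share still fell over these groups, from 0.848 to 0.667 and 0.558%. Here the sums hardly differed, with 2582, 2612 and 2599 CPM for cathepsins and 1717, 1780 and 1851 CPM for pump subunits. At least 2-fold higher with 3 or more mmp9 UMIs was 1 of 25 tested members (3.47% of all genes), and 2 were lower (8.83%). The medians were -0.32 for cathepsins, 0.02 for pump subunits and -0.16 for all genes.

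The 1 gene called higher was atp6v1aa, with 19.8, 42.5 and 54.7 CPM from 0 to 3 or more mmp9 UMIs (log2 ratio 1.47, interval 1.12 to 1.83). The interval at 0 mmp9 UMIs lay apart from those of both other groups. The called lower genes were ctsba, with 46.3, 29.0 and 17.9 CPM (-1.37, interval -1.81 to -0.95), and ctsl.1, with 23.7, 17.7 and 11.3 CPM (-1.07, interval -1.64 to -0.52). Of the abundant genes ctsd had 204, 174 and 136 CPM (-0.58) and ctss1 460, 437 and 349 CPM (-0.40), while ctss2.1 had 1559, 1659 and 1787 CPM (0.20) and atp6v0d1 90.1, 93.5 and 123 CPM (0.45). Members of both families thus went in both directions at low lyz.

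In the same 3 groups hsp70 transcripts went from 280 to 1158 and 2237 CPM, hemoglobin took 0.248, 0.00549 and 0.00604% of UMIs, and the median depth went from 1572 to 2159.5 UMIs. Without the cells that had 3 or more hsp70 UMIs, also left out with the first results in view, atp6v1aa had 48.3 CPM with 3 or more and 18.7 CPM with 0 mmp9 UMIs (1.37, interval 0.93 to 1.81) and was again called. The hsp70 difference was reduced but not removed in this set. All 4 hsp70 genes were still at least 2-fold higher with 3 or more mmp9 UMIs, with a median log2 ratio of 1.83 against 3.06 before. There ctsba (-0.64) and ctsl.1 (-0.69) were no longer called, so that 1 of 25 members was higher (2.82% of all genes) and 0 lower (6.11%). In WKM only 31 neutrophil-gated cells reached 3 mmp9 UMIs, and no ratio was formed. There ctss2.1 had 609, 1128 and 1661 CPM from 0 to 3 or more mmp9 UMIs, and atp6v1aa 22.3, 50.7 and, from 3 counts, 38.0 CPM.

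**Figure D3:**
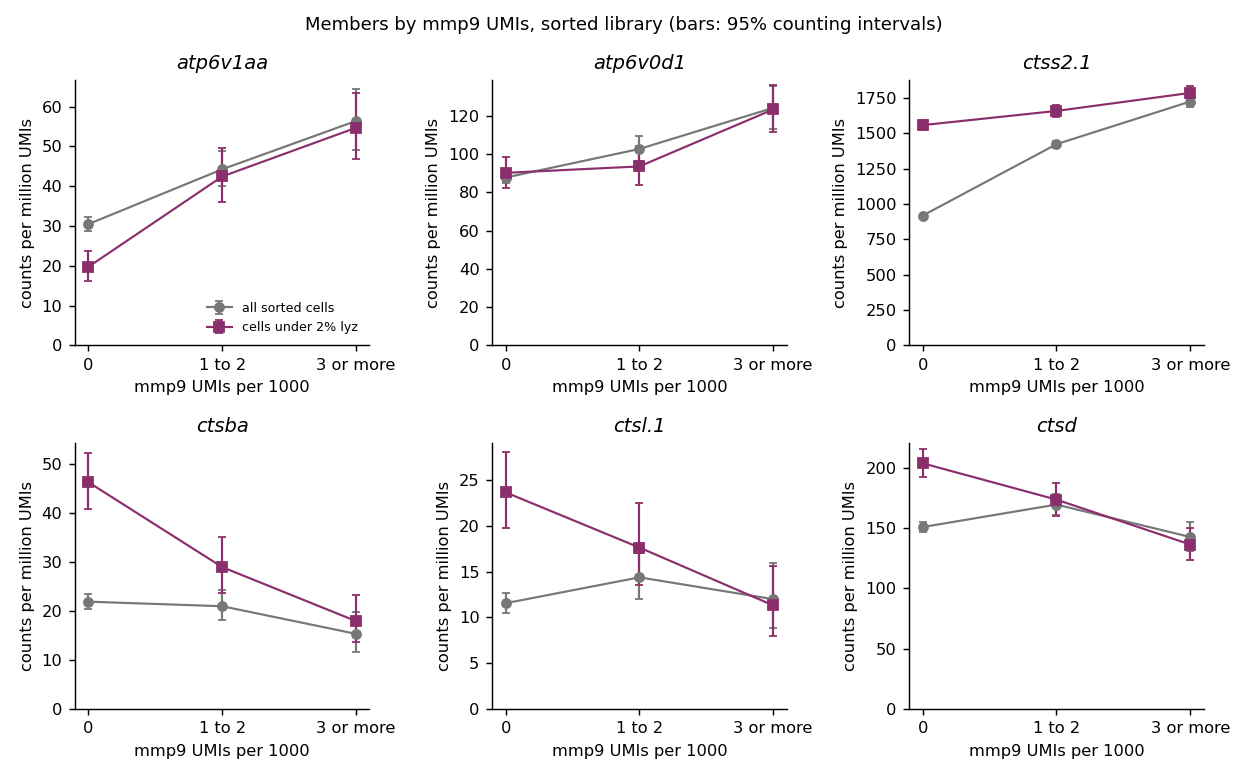
Levels of 6 members in CPM (vertical axes) by the mmp9 UMIs of a cell after thinning to 1000 UMIs (horizontal axes), in all sorted cells (circles) and in those under 2% lyz (squares). Bars are 95% counting intervals. At low lyz atp6v1aa goes from 19.8 to 54.7 CPM with mmp9, and ctsba from 46.3 to 17.9 CPM.

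Classes of WKM cells were gated on marker genes, and gave 3691 neutrophil, 631 monocyte/macrophage, 1027 erythroid, 180 HSPC (blood stem and progenitor), 79 T or NK, 70 B and 21 thrombocyte cells. No gate was met by 2244 cells and more than 1 by 248, and these were left out. All 9 macrophage markers in the table were detected in the macrophage gate, 6 of 6 B cell and 9 of 10 T or NK markers in theirs, and 4 of 6 HSPC and 4 of 5 thrombocyte markers. The gates were built on these same lists, so their detection does not test the class names. HSPC markers summed to 461 CPM in HSPCs and to 149 CPM in neutrophils. Median depth was 9197 UMIs in macrophage cells and 3270 in neutrophils. Transcripts of lyz were counted in all classes, at 4.38% of the neutrophil level in macrophages, 5.17% in erythroid cells and 0.548% in HSPCs. The median lyz share of a macrophage cell was 0.0203%, and the HSPC gate itself had a lyz limit of 2%. These percentages are given beside those of members as a rough guide only. Whether a member's counts came from the RNA of other cells was not tested.

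Cathepsins summed to about the same in gated neutrophils (1376 CPM) and macrophages (1284 CPM), while the pump stood at 1377 CPM in neutrophils and 2508 CPM in macrophages. The neutrophil gate of 5% marker UMIs favoured lyz-rich cells, with a median lyz share of 5.27%. In neutrophil-marked WKM cells under 2% lyz these markers summed to 42334 CPM, under 5% of UMIs. Those cells had 1925.5 CPM of cathepsins and 1676 CPM of pump transcripts. Ratios to neutrophils below thus rest on a class weighted to lyz-rich cells. Erythroid cells had 476 CPM of cathepsins and 556 CPM of pump transcripts, and HSPCs 207 and 705 CPM. In B, T or NK and thrombocyte cells, with far fewer UMIs, cathepsins had 630, 378 and 354 CPM and the pump 907, 865 and 987 CPM. Among the 4 large classes macrophages were highest, with intervals apart from the next class, for 9 cathepsins and 11 pump subunits, and neutrophils for 3 cathepsins (ctss2.1, ctss1 and ctsl.1) and 3 pump subunits (atp6v1e1a, atp6v1f and atp6v0a1a). Together these were 60.6% and 18.2% of the members, where 7.1% of all 12868 genes were highest in macrophages by this rule and 13% in neutrophils. Intervals are more easily apart for genes with many counts, and these shares were not matched for counts.

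Between macrophages and neutrophils 14 of 30 tested members were at least 2-fold higher, 7 of each family, where 15.2% of all 8780 genes were, and 5 were lower, where 13.7% were. The medians were 1.39 for cathepsins, 0.56 for pump subunits and 0.08 for all genes. Members were thus called higher in macrophages more often than genes at large, and called lower about as often. The similar cathepsin sums of both classes hid large differences between genes in both directions.

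Neutrophils were richer in 3 cathepsins. The ctss1 gene had 391 CPM in neutrophils and 12.5 CPM in macrophages (-4.97, interval -5.31 to -4.64), which is 3.19% of its neutrophil level and below the 4.38% of lyz. The ctsl.1 gene had 11.83 CPM in neutrophils and 5 counts in macrophages (-3.85, interval -5.49 to -2.60), or 6.95% of its neutrophil level, on too few counts to be set apart from that of lyz. The third, ctss2.1, had 638 and 211 CPM (-1.60, interval -1.69 to -1.52), at 33.0% of its neutrophil level and so above that of lyz. Without the 31 macrophage cells that had 0.5% or more lyz, left out with the first results in view, ctss1 had -6.20, ctsl.1 -4.48 and ctss2.1 -1.62.

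Macrophages were richer in 7 cathepsins. The largest difference was that of ctsk, the collagen-degrading enzyme of mammalian osteoclasts, with 26.6 CPM in macrophages and 0.329 CPM, from 5 counts, in neutrophils (6.34, interval 5.09 to 7.98). Next came ctss2.2 with 264 and 13.5 CPM (4.28, interval 4.07 to 4.50) and ctsh with 98.2 and 6.24 CPM (3.98, interval 3.66 to 4.30). Others were ctsz (151 and 31.9 CPM, 2.24), ctsla (31.2 and 6.70 CPM, 2.22), ctsba (54.6 and 20.2 CPM, 1.44) and ctsc (149 and 56.9 CPM, 1.39). Below the limit stayed ctsa (0.82), ctsd (0.33) and ctsf (-0.58). The ctsbb gene had 19 counts in macrophages and 0 in neutrophils, 15.8-fold higher with neutrophils set to 3 counts over the class. That value rests on the set count and is not a lower limit. Both ctso (5 and 15 counts) and the pump gene atp6v0cb (6 and 1) stayed under 50 counts.

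By position the genes ctsk, ctss2.1 and ctss2.2 are neighbours with 0 protein-coding genes between adjacent pairs in the RefSeq annotation of the GRCz12tu assembly, which is not the build of the counts. Of this row ctss2.1 was high in neutrophils, and ctsk and ctss2.2 in macrophages.

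**Figure D4:**
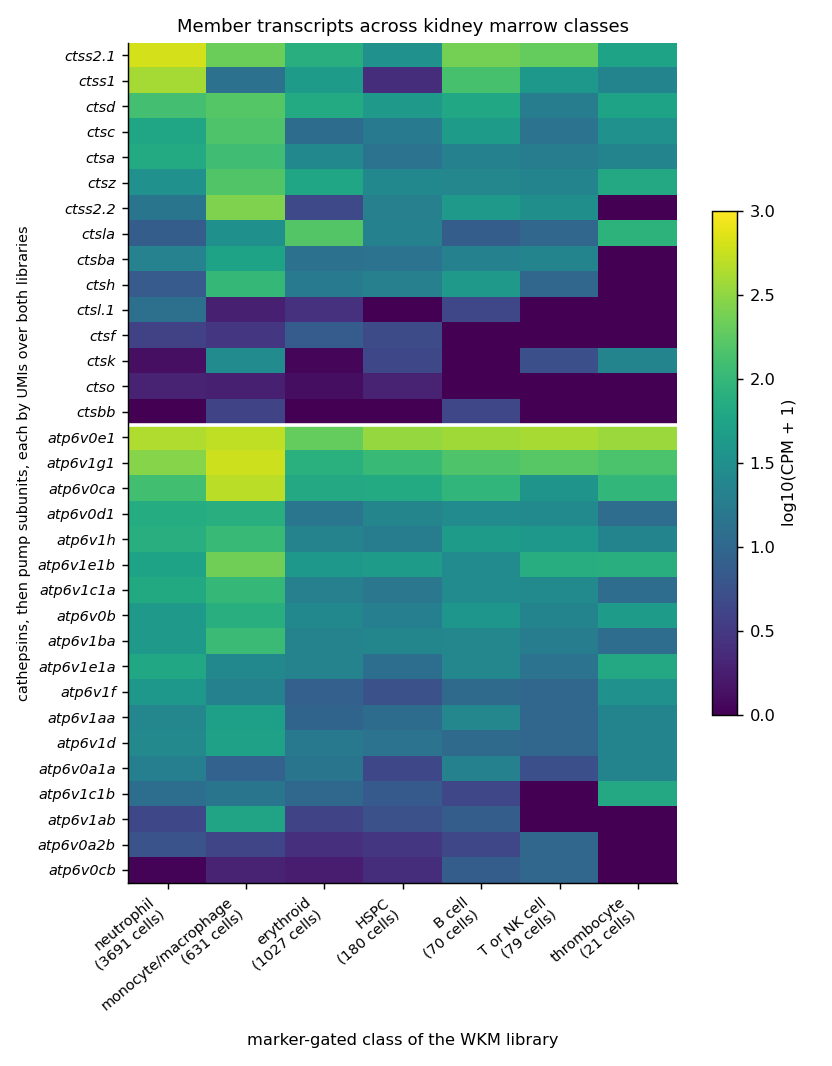
Heat map of log10(CPM + 1) for the 33 members (rows; 15 cathepsins above the white line, 18 pump subunits below) in 7 gated classes of WKM (columns, with cell numbers). The neutrophil column is brightest for ctss2.1, atp6v0e1 and ctss1, the macrophage column for atp6v1g1, atp6v0e1 and atp6v0ca, and ctsla stands out in erythroid cells at 155 CPM. Columns of 21 to 79 cells rest on few counts.

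In the pump, 7 subunits were at least 2-fold higher in macrophages. For subunit A, the catalytic one, atp6v1ab had 54.9 CPM in macrophages and 3.48 CPM in neutrophils (3.98, interval 3.56 to 4.43) and atp6v1aa 48.8 and 23.7 CPM (1.04). The stalk subunit atp6v1e1b had 222 and 53.9 CPM (2.04), the ring subunit atp6v0ca 485 and 123.5 CPM (1.97), and the B subunit atp6v1ba 110 and 40.5 CPM (1.44). The rotor subunit atp6v1d (51.1 and 24.6 CPM, 1.06) and the stalk subunit atp6v1g1 (588 and 284.5 CPM, 1.05) completed the list. With scaling by the median of ratios, and likewise without lyz and hemoglobin in the totals, 4 of the 7 were called, since atp6v1d (0.98 by the first scaling), atp6v1g1 (0.97) and atp6v1aa (0.96) fell just short. Of all 8780 genes 1191 and 1092 were called higher in these settings, against 1337 before. Of the 7, only atp6v0ca belongs to V0, and the others to V1. V0 summed to 1171 CPM in macrophages and 694 in neutrophils, of which atp6v0ca made up 485 and 123.5 CPM. V1 summed to 1337 and 684 CPM.

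Lower in macrophages were 2 pump genes, atp6v1e1a with 24.2 CPM against 62.4 CPM (-1.37, interval -1.63 to -1.12) and atp6v0a1a, an a subunit that forms the path of the protons, with 7.73 against 18.9 CPM (-1.29, interval -1.77 to -0.84). Not called were atp6v0b (0.97), atp6v1c1a (0.56), atp6v1h (0.52), atp6v1c1b (0.32), atp6v0e1 (0.26), atp6v0d1 (0.10), atp6v0a2b (-0.56) and atp6v1f (-0.98).

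Paralogs encoding the same protein of the pump or the same cathepsin were divided differently between the classes. Of cathepsin S UMIs in neutrophils 37.5% were ctss1, 61.2% ctss2.1 and 1.3% ctss2.2, and in macrophages 2.6, 43.3 and 54.2%. For cathepsin L, ctsla held 36.2% in neutrophils, 97.4% in macrophages and 98.9% in erythroid cells. For subunit A, atp6v1ab held 12.8% in neutrophils and 52.9% in macrophages, and for subunit E, atp6v1e1a held 53.7 and 9.8%. For subunit C the split differed little, with atp6v1c1b at 14.35 and 12.4%, and for the ring subunit c nearly all UMIs were atp6v0ca, with atp6v0cb at 0.1 and 0.2%.

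**Figure D5:**
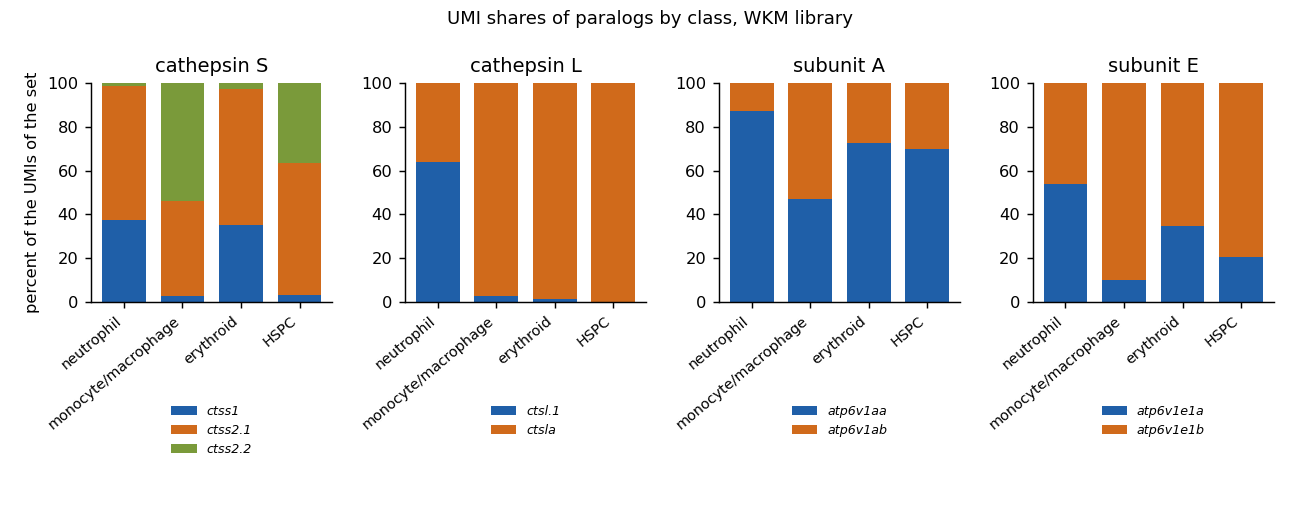
Percent of the UMIs of a paralog set (vertical axes, from 0 to 100) that each gene holds in 4 WKM classes (bars), for cathepsin S, cathepsin L and the pump subunits A and E. ctss2.2 holds 54.2% of cathepsin S in macrophages and 1.3% in neutrophils, and atp6v1ab 52.9 and 12.8% of subunit A.

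Erythroid cells had hemoglobin at 52.5% of their UMIs, and the median log2 ratio of all genes to neutrophils was -0.89. Of 29 tested members 3 were at least 2-fold higher than in neutrophils (6.63% of all genes) and 15 lower (46.4%). With hemoglobin UMIs left out of both totals, ctsla had 327 CPM in erythroid cells and 6.88 CPM in neutrophils (log2 ratio 5.57). This rests on 1096 and 102 counts. On the same scale ctsh had 2.43, ctsf 2.15 and ctsz 1.89, while pump genes ran from -1.38 to 0.88. The cathepsin S genes ctss1 and ctss2.1 stood at 11.1 and 11.9% of their neutrophil CPM, above the 5.17% of lyz, in a division close to that of neutrophils (35.2% and 61.9% of the set).

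HSPCs had the lowest cathepsin sum of all 7 classes. Of 29 tested members 2, ctsh (19.0 CPM, 1.61) and ctsla (20.04 CPM, 1.58), were at least 2-fold higher than in neutrophils (16.8% of all genes) and 16 lower (29.1%). The ctss1 gene had 3 counts, 0.384% of its neutrophil level and below the 0.548% of lyz, and ctsl.1 had 0 counts. The small V0 subunit atp6v0e1 held 338 of the 705 CPM of the pump in HSPCs and did not pass the limit (-0.36).

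Genes of the same organelle that carry other names were compared in the same way, from lists that were likewise chosen with earlier results known. Between the outer lyz bands of the sorted library, of pump assembly and accessory genes 4 of 9 tested were higher and 0 lower (median 0.94), of other lysosomal hydrolases 8 of 30 higher and 1 lower (0.70), and of lysosomal membrane proteins and regulators 12 of 25 higher and 0 lower (0.99). Of all genes 27.4% were higher and 11.1% lower, so that the hydrolases were called higher about as often as genes at large. These medians exceeded that of all genes (0.44) and that of the pump subunits (0.10). The pump-associated atp6ap2 had 268 CPM under 2% and 122 CPM over 10% lyz (1.14) and rnaseka 257 and 123 CPM (1.06), while the assembly factor vma21 had 105 and 110 CPM (-0.07). Of the hydrolase list, the thioesterase ppt1 had 0.72, the serine carboxypeptidase scpep1 0.67 and the saposin precursor psap 0.41, and of the membrane list laptm5 0.99, lamtor4 0.18 and the tetraspanin cd63 0.04.

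Among inhibitors of cysteine proteases 0 of 4 were higher and 1 lower in that comparison. The lower one was cst14b.2 with 3.12 and 8.26 CPM (-1.40), beside cst14a.2 (-0.20) and cst3 (0.33). In neutrophil-marked WKM cells the medians of the accessory, hydrolase and membrane lists were 0.91, 0.59 and 0.79, beside 0.48 for all genes.

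Between macrophages and neutrophils, where 15.2% of all genes were higher and 13.7% lower, the related lists had smaller shares of genes called higher than the members. Of accessory genes 1 of 9 was higher and 1 lower, of hydrolases 6 of 29 higher and 6 lower, of membrane genes 4 of 23 higher and 3 lower, and of inhibitors 0 of 4 either way. The saposin precursor psap had 444 CPM in macrophages and 161 CPM in neutrophils (1.46) and scpep1 266 and 119 CPM (1.16), but ppt1 had 174 and 410 CPM (-1.23) and cd63 755.5 and 2406 CPM (-1.67). For laptm5, lamtor4, rnaseka, atp6ap2 and vma21 the log2 ratios were -0.37, -0.96, -0.32, -0.11 and 0.80, and for cst14b.2, cst14a.2 and cst3 they were -0.35, -0.30 and -0.37. The 1 accessory gene called higher, named here because of its value, was tcirg1b, an a subunit of the pump outside the atp6v symbols, with 85.0 CPM in macrophages and 11.4 CPM in neutrophils (2.89).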

How the data were processed

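The deposited matrices held whole UMI counts (10x Genomics Single Cell 3′ v3.1), which the authors made with Cell Ranger 3.1.0 on GRCz11 extended by Citrine and CFPNTR, for barcodes called as cells. Counts per gene come from 3′ ends and were not divided by gene length, and near-identical paralogs may share reads that were dropped or misassigned. The authors' demultiplexing and Seurat 4.0.2 steps were not redone.

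Barcodes needed 500 features or more and less than 10% of counts from mitochondrial genes, and doublets were called with Scrublet (scanpy 1.11.5, expected rate 10%) and removed (10.6% of sorted and 1.47% of WKM barcodes that passed). UMIs were summed over the cells of a group and scaled to CPM, with exact Poisson bounds (95%). Ratios had exact binomial intervals. A gene was tested with at least 50 counts over both groups, and called at a 2-fold ratio. A count of 0 was set to 3 counts. No p-values were computed, since each condition had 1 library.

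Gates needed 3 UMIs of marker genes (macrophage, B, T or NK, thrombocyte, HSPC), 10% hemoglobin (erythroid) or 5% of UMIs from neutrophil markers. The names rest on these rebuilt gates and not on the authors' annotation. Mixed cells may remain, since WKM doublets came to 1.47%.

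Members, gene lists and comparisons were chosen with earlier results of these data known. Named were the 10 cathepsins and 10 pump subunits with most UMIs, in each comparison the 3 highest and 3 lowest ratios, and the top 3 genes by UMIs of each related list. On simulated counts for the sorted lyz comparison (9102 genes, 200 changed) 97.5% of intervals held the true ratio of changed genes. The intervals hold counting error only, so this does not speak to differences between fish or libraries. Tools were pandas 2.3.3, scipy 1.17.1, numpy 2.4.6 and matplotlib 3.10.9 under Python 3.11.15.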

Additional observations from a re-analysis of the deposited data

Results flagged for a closer look

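For 2 cathepsins the log2 ratio between cells under 2% and over 10% lyz had opposite signs in the libraries, with both counting intervals off 0, and with 1 library each the difference between libraries was not tested. The cathepsin L gene ctsla had -1.22 in sorted neutrophils (60 and 149 counts) and 1.33 in neutrophil-marked WKM cells (39 and 23 counts). The aminopeptidase ctsh had -0.88 in the sorted library (53 and 104 counts) and 1.01 in neutrophil-marked WKM cells (42 and 31 counts). In gated WKM classes ctsla had 155 CPM in erythroid cells and ctsh 98.2 CPM in macrophages, against 6.70 and 6.24 CPM in neutrophils. In the lowest band of neutrophil-marked WKM cells hemoglobin was 5.31% of UMIs and macrophage markers summed to 64.1 CPM, against 1.51% and 25.2 CPM in the highest. In the lowest band of the sorted library they were 0.115% and 6.25 CPM. The part of other cells' RNA in these values was not tested.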

How the results depend on the processing

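Of the recomputed medians and counts of the members in each comparison 135 stayed close to the reported value and 29 moved, where close means a median within the median bounds of the members' counting intervals and a count within 1.5 times. For the lyz bands of the sorted library the cathepsin median moved from 0.66 to 0.47 with lyz and hemoglobin left out of the totals, 0.21 with scaling by the median of ratios, 0.41 with at least 800 features and 0.80 with members of at least 20 counts, and the pump median from 0.10 to -0.35 with the median of ratios. Scaling by the median of ratios takes the all-gene median, 0.44 here, off every ratio, so its shifts were fixed by that value. The all-gene median itself was 0.26 without lyz and hemoglobin and 0.35 with at least 800 features. For all WKM barcodes the pump median of 0.07 became -0.092 with each cell weighted equally, -0.11 with the median of ratios and 0.18 in neutrophil-marked cells. The cathepsin median of 0.47 became 0.76 without cells near the limits, 0.70 without other gates and 0.82 in neutrophil-marked cells. The 3 members lower there became 0 with equal weights, 0 without other gates and 0 in neutrophil-marked cells, and 5 with 800 features. Of all genes, in the same order, 297 of 9859, 378 of 8201, 509 of 7072 and 734 of 9391 were lower. Of the members called there, ctss1 (0.46) and atp6v1f (0.18) changed sign in neutrophil-marked cells, and of those not called 8 did, ctss2.1, ctsd, ctsa, ctsba, ctsl.1, atp6v0d1, atp6v1h and atp6v1ba. By mmp9, 0 members higher became 1 with equal weights, 2 with 800 features, 1 each under 5% lyz, under 2% lyz and under 2% lyz without hsp70-rich cells, and 1 without hsp70-rich cells at any lyz. Of all genes 439 of 9655 were higher with equal weights and 992 of 9417 with 800 features. They were 261 of 8186 under 5% lyz and 245 of 7052 under 2% lyz. Without hsp70-rich cells they were 186 of 6594 under 2% lyz and 705 of 9293 at any lyz. The 2 lower became 1 with equal weights and 0 without hsp70-rich cells, at any lyz or under 2%, and the cathepsin median of 0.08 became -0.32 under 2% lyz, both with and without those cells. Of all genes, in the same order, 1027 of 9655, 1020 of 9293 and 403 of 6594 were lower. For macrophages the pump median of 0.56 became 0.41 without lyz and hemoglobin and 0.77 with at least 200 counts, and the cathepsin median of 1.39 became 1.11 at 20 counts. Of the recomputed ratios of single tested members 933 stayed within their own counting interval and 249 moved. The 2 called ones above were counted apart as reversed. Counting members called or not, signs changed 17 times in the sorted lyz bands and 24 times in all WKM barcodes. By mmp9 they changed 60 times, and in macrophages 2 times. The matching shares of all genes were not determined. Calls were lost 3 times in the sorted lyz bands, 14 times in all WKM barcodes, 4 times by mmp9 and 8 times in macrophages. In the same order they were gained 9, 7, 11 and 5 times. How often calls of all genes were lost or gained was likewise not determined. Over all genes in the sorted lyz bands the 2494 higher and 1009 lower became 1358 and 1606 with the median of ratios, and lower ones 590 without cells near the limits. In WKM 516 lower became 297 with equal weights, and 1740 higher became 814 with 200 counts. By mmp9 784 higher and 1194 lower became 439 with equal weights (higher only), 434 and 380 when cells were grouped on all their UMIs, and 245 and 623 under 2% lyz. For macrophages 1337 higher became 678 and 1200 lower 778 with 200 counts. No paired analysis was possible because cells were not assigned to a fish here, so that each condition was 1 sample. Genes of few UMIs, such as ctsk in neutrophils, and the classes of 21 to 79 cells are limited by depth.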

Other observations

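Cells left out of the gates also carried members. The 2244 WKM cells that met no gate, with a median of 1758 UMIs, had 1123 CPM of cathepsins and 1515 CPM of pump subunits, with ctss2.1 at 475 CPM, ctss2.2 at 67.2 CPM and atp6v0ca at 224 CPM. In them ctss1 was at 40.4% of its neutrophil-gated CPM and lyz at 2.95%. As lyz is itself a marker of the neutrophil gate, which these cells did not meet, its level in them was limited by the gate. The percentage of ctss1 is thus not read against that of lyz here. The 248 cells that met more than 1 gate, with a median of 10644 UMIs, had 379 and 795 CPM, with ctsla at 88.2 CPM and hemoglobin at 27.2% of UMIs.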
